A study of Mus musculus with 10 samples.

Results

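The 8 genes described here are C-type lectin receptors encoded on mouse chromosome 6, namely Clec4a1, Clec4a2, Clec4a3, Clec4b1, Clec4d, Clec4e, Clec4n and Clec12a, out of 53715 genes in the count files. They were chosen by name with their midbrain and striatum levels in these same libraries already known. Their regional levels are therefore given as a description, with no test, and tests are kept for the difference between cohorts and for genes outside the group. The RNA came from CD11b-positive cells isolated from the midbrain (Mdb) or the striatum (Str) of adult C57BL/6 mice (C57BL/6 J in the methods) aged 3 months, to compare the microglia of the region that holds the dopaminergic cell bodies with those of the region that holds their terminals. All mice were untreated and perfused with cold saline. The tissue was digested with papain, cleared of debris on Percoll and passed over CD11b magnetic beads, which retain microglia together with other CD11b-positive myeloid cells, and poly-A RNA was taken from the retained cells. A pilot cohort gave 2 midbrain and 2 striatum libraries, and a second cohort gave 2 midbrain and 2 striatum libraries whose labels name 1 region. For 2 further libraries of the second cohort the labels name both regions, so they entered no comparison. No group carried a transgene or received a drug, and the libraries came from 2 mice in the pilot and 3 in the second cohort, so midbrain and striatum libraries shared animals. Titles number the libraries without naming a mouse, and in the second cohort the file headers number the animals differently. The main fits treat libraries as separate, and every p measures the spread between libraries. The title number served as a block in an alternative only.

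C-type lectin receptors of this family are single-pass membrane proteins with 1 extracellular carbohydrate recognition domain, and they are best known from monocytes, macrophages, neutrophils and dendritic cells, where they bind glycans and glycolipids of microbes or ligands from dead cells. The activating members carry no signalling motif of their own and couple to the Fc receptor gamma chain (gene Fcer1g), which engages the kinase Syk and the adaptor Card9. The inhibitory members hold an immunoreceptor tyrosine-based inhibitory motif (ITIM) that recruits phosphatases such as SHP-1.

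Of these 8 genes, 7 lie in 1 cluster that runs from Clec4a1 (ENSMUSG00000049037.8, chr6:122921848-122934619, plus strand, GRCm38) to Clec4e (ENSMUSG00000030142.10, chr6:123281789-123289870, minus strand). Clec4d (ENSMUSG00000030144.4, chr6:123262111-123275265, plus strand) is the nearest neighbour of Clec4e, with 6.5 kb between them. Clec4a3 (ENSMUSG00000043832.13, chr6:122952515-122969875), Clec4b1 (ENSMUSG00000030147.12, chr6:123049962-123071555), Clec4a2 (ENSMUSG00000030148.15, chr6:123106428-123143999) and Clec4n (ENSMUSG00000023349.14, chr6:123229843-123247021) lie between the ends of the cluster on the plus strand. Clec12a (ENSMUSG00000053063.11, chr6:129342691-129365303, plus strand) lies 6052.8 kb beyond Clec4e, within the natural killer gene complex. No annotated exon base of the 8 genes is shared with another gene, although the body of Clec4a2 overlaps that of Gm44132. Near their 3′ ends, where these reads fall, 10.7% of the 50-base windows of Clec4a2 transcripts also occur in Clec4a4 or Clec4b1 transcripts, and 18.8% of those of Clec4b1 occur in Clec4a2. A read within such a stretch can match more than 1 gene, and the counting command did not turn on multi-mapping reads, so the counts of this pair are less certain than those of Clec4a1, Clec4a3, Clec4d, Clec4e and Clec12a, for which 0 windows were shared. How many reads were lost was not measured.

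Promoter windows of 250 bases before the RefSeq start site (GRCm38.p6) are shown for Clec4d and Clec4e, the adjacent pair with the largest ratios of second to pilot midbrain levels, for Clec12a, the distant gene, and for Clec4a2, whose regional difference was among the smallest. Capitals mark GAGGAA (or TTCCTC on the opposite strand), the core bound by Ets factors such as the myeloid regulator PU.1, and TTGCNCAA (or TTGNGCAA), a motif of C/EBP factors. Both motifs were searched on both strands and were picked after the sequences had been seen.
Clec4d (chr6:123261857-123262106, plus strand): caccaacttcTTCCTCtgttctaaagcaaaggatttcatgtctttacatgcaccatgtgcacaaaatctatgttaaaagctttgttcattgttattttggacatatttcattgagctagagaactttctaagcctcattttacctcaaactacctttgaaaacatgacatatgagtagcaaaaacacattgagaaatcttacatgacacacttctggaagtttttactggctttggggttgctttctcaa
Clec4e (chr6:123289872-123290121, minus strand): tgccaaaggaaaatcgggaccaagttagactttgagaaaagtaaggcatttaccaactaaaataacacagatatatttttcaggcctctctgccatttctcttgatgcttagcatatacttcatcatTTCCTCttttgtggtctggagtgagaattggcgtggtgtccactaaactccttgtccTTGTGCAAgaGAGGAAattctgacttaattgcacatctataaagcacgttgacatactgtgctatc
Clec12a (chr6:129349994-129350243, plus strand): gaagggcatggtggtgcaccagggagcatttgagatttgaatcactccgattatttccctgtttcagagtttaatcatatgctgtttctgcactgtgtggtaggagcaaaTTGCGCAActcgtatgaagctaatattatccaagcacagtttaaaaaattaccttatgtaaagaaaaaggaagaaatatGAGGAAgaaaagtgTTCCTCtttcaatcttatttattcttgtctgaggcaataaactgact
Clec4a2 (chr6:123122440-123122689, plus strand): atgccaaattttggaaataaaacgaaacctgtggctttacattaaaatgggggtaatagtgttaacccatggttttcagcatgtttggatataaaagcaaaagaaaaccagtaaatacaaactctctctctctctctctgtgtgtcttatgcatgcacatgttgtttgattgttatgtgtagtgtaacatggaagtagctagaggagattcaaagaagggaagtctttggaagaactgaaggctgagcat
GAGGAA was present in 23.25% of 32851 promoter windows of this length, and TTGCNCAA in 2.609%. The windows of Clec4e and Clec12a held both, with 2 GAGGAA matches and 1 TTGCNCAA match each. Clec4d had 1 GAGGAA match, and Clec4a2 had 0 of either. Of the windows not printed, those of Clec4a1 and Clec4b1 each held 2 GAGGAA matches, and Clec4a3 held 0 or 1 depending on the start site, with 0 TTGCNCAA matches in any of them. The start sites used for Clec4a2 and Clec12a lie 16262 and 7553 bases inside the gene bodies of the count files, so other start sites of these genes are not shown. A match describes letters only.

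Levels are in CPM, a gene's read count divided by the library's size in units of 1000000, where sizes were adjusted by the trimmed mean of M values (TMM). Since reads mark 3′ ends, levels are compared between libraries and not between genes. Total counts ranged from 575709 in striatum replicate 3 of the second cohort to 8463782 in striatum replicate 2 of the pilot. A gene with 3 counts, taken here as the floor, thus corresponded to 5.14 CPM in the former library and 0.35 CPM in the latter. Microglia markers were high in the CD11b-positive fraction of every group. The summed level of 14 of them lay between 20600 and 36890 CPM and 0 of them were at the floor. A summed level gives no share of cells. By flow cytometry the paper found nearly all cells of the fraction to be CD11b-positive with low CD45, its definition of microglia, and a few with high CD45. Markers of other leukocytes were also present and are given beside the values they moved with.

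**Figure D1:**
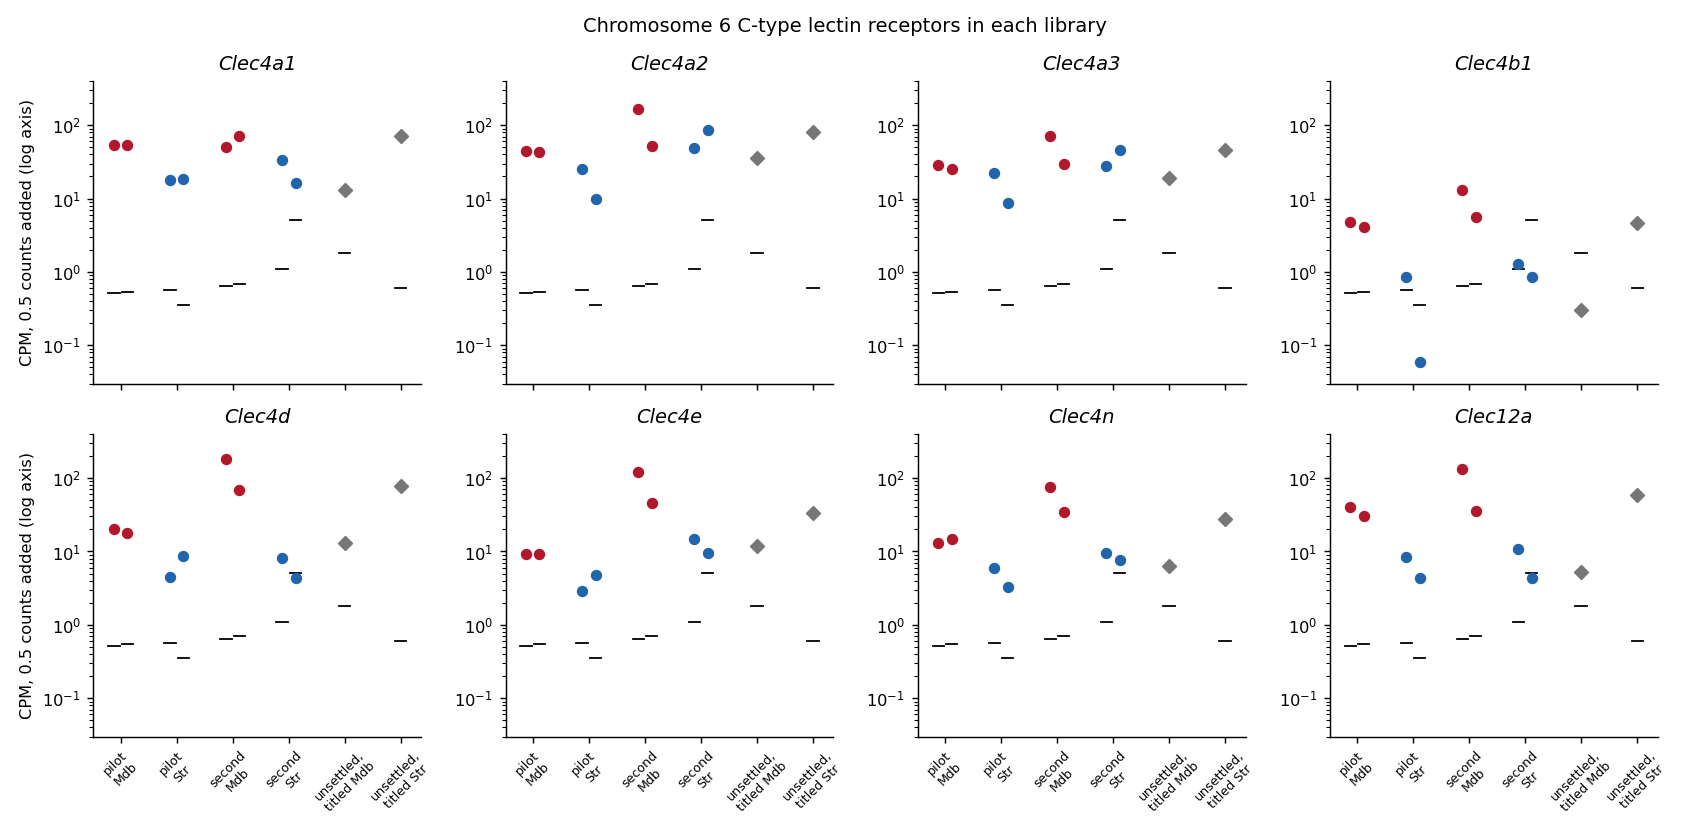
Level of each receptor in each library, in CPM on a log axis with 0.5 counts added, for midbrain (red), striatum (blue) and the libraries of unsettled region (grey diamonds). Short black lines mark the level of 3 counts in that library, and in the second cohort Clec4a2 and Clec4a3 are the genes whose midbrain and striatum points overlap.

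Clec4d, Clec4e and Clec4n, which encode activating receptors of the cluster, were higher in the midbrain in each cohort and reached their highest levels in the midbrain of the second cohort. Clec4d encodes MCL, a receptor for mycobacterial glycolipid that pairs with Mincle on the cell surface. Its level was 20.1 and 18.0 CPM in the pilot midbrain libraries and 4.35 and 8.52 CPM in the pilot striatum libraries. In the second cohort it was 184.5 and 67.8 CPM in the midbrain and 7.98 and 3.43 CPM in the striatum, the last from 2 counts. Midbrain and striatum libraries did not overlap in either cohort. The log2 fold change of Clec4d, midbrain over striatum, was 1.51 (SE 0.37) in the pilot and 4.05 (SE 0.82) in the second cohort.

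Clec4e encodes Mincle, which binds the mycobacterial cord factor and a nuclear protein released from dying cells. The pilot midbrain libraries held 9.04 and 9.18 CPM of Clec4e, and the pilot striatum libraries 2.84 and 4.78 CPM. In the second cohort the midbrain held 121.5 and 46.0 CPM and the striatum 14.5 and 8.57 CPM, so the groups were again apart. Its log2 fold change was 1.18 (SE 0.42) in the pilot and 2.51 (SE 0.64) in the second cohort. The pilot midbrain replicates were closer to each other than those of any other group, with a mean of 9.11 ± 0.0984 CPM (SD, n = 2) against 83.8 ± 53.4 CPM (SD, n = 2) in the second cohort.

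Clec4n encodes Dectin-2, a receptor for fungal mannans. It was measured at 12.8 and 14.6 CPM in the pilot midbrain and at 5.86 and 3.27 CPM in the pilot striatum. The midbrain libraries of the second cohort gave 76.3 and 34.7 CPM and the striatum libraries 9.43 and 6.86 CPM. The log2 fold changes were 1.64 (SE 0.38) and 2.51 (SE 0.62), and the groups did not overlap in either cohort.

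Clec4b1, which encodes the activating receptor DCAR, was the sparsest of the 8 and was close to the limit of detection in the striatum. It gave 28 and 22 counts in the pilot midbrain libraries and 4 and 0 counts in the pilot striatum libraries. The second cohort gave 62 and 24 counts in the midbrain and 3 and 0 counts in the striatum. Relative to TMM-scaled depth, the midbrain held 15.2 times the striatal Clec4b1 counts in the pilot and 10.6 times in the second cohort. These ratios pool the libraries of a group, rest on 4 and 3 striatal counts and are given as values with no test. Ratios of mean CPM were 11.55 in the pilot and 17.15 in the second cohort, so which cohort held the larger ratio depended on the measure. Clec4b1 passed the filter on low counts through its midbrain libraries alone. Its fitted log2 fold changes of 4.30 (SE 1.14) and 3.03 (SE 0.87) depend on the offset of 0.5 counts added to libraries at 0, and the pilot value ran from 2.38 to 6.19 as either striatum library was left out.

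Clec12a, Clec4a2, Clec4a1 and Clec4a3 differed from each other in how regular their regional difference was. Clec12a encodes MICL, an ITIM receptor of granulocytes and monocytes that binds uric acid crystals. It was measured at 40.6 and 30.6 CPM in the pilot midbrain against 8.32 and 4.32 CPM in the pilot striatum. The second cohort gave 131.2 and 35.6 CPM in the midbrain against 10.5 and 3.43 CPM in the striatum, the last from 2 counts. The log2 fold changes of Clec12a were 2.57 (SE 0.36) and 3.06 (SE 0.92), the latter 1.98 without second midbrain replicate 1, and neither cohort showed an overlap.

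Clec4a2 encodes DCIR, the ITIM receptor of dendritic cells and macrophages. It was measured at 44.7 and 43.0 CPM in the pilot midbrain and at 24.9 and 9.80 CPM in the pilot striatum. In the second cohort the midbrain replicates were far apart, at 168.4 and 51.8 CPM, and the striatum libraries, at 48.6 and 84.0 CPM, fell between them or below. The log2 fold change of Clec4a2 was 1.53 (SE 0.35) in the pilot and 0.81 without pilot striatum replicate 2. In the second cohort it was 0.70 (SE 0.52), turned to -0.13 without midbrain replicate 1 and reached 1.596 without midbrain replicate 3.

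Clec4a3 encodes a DCIR-like protein described as lacking the ITIM, and in the second cohort its libraries stood in the same order as those of Clec4a2. The pilot gave 28.6 and 25.0 CPM in the midbrain and 21.9 and 8.75 CPM in the striatum. The second cohort gave 70.6 and 29.8 CPM in the midbrain and 27.6 and 44.6 CPM in the striatum. The regional groups of Clec4a3 were apart in the pilot and overlapped in the second cohort. Its log2 fold change was 1.00 (SE 0.37) in the pilot and 0.28 without pilot striatum replicate 2. In the second cohort it was 0.54 (SE 0.47) and -0.06 without midbrain replicate 1.

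Clec4a1, another DCIR-like gene whose product is described as lacking the ITIM, showed the smallest spread of the 4 in the pilot. It was measured at 52.9 and 54.0 CPM in the pilot midbrain and at 17.6 and 18.4 CPM in the pilot striatum. The second cohort gave 49.9 and 72.2 CPM in the midbrain and 33.4 and 15.4 CPM in the striatum. Its log2 fold changes were 1.51 (SE 0.22) and 1.09 (SE 0.42), the latter 1.85 without second striatum replicate 1 and -0.07 with the libraries of unsettled region added by title, and the regions did not overlap in either cohort among assigned libraries.

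**Figure D2:**
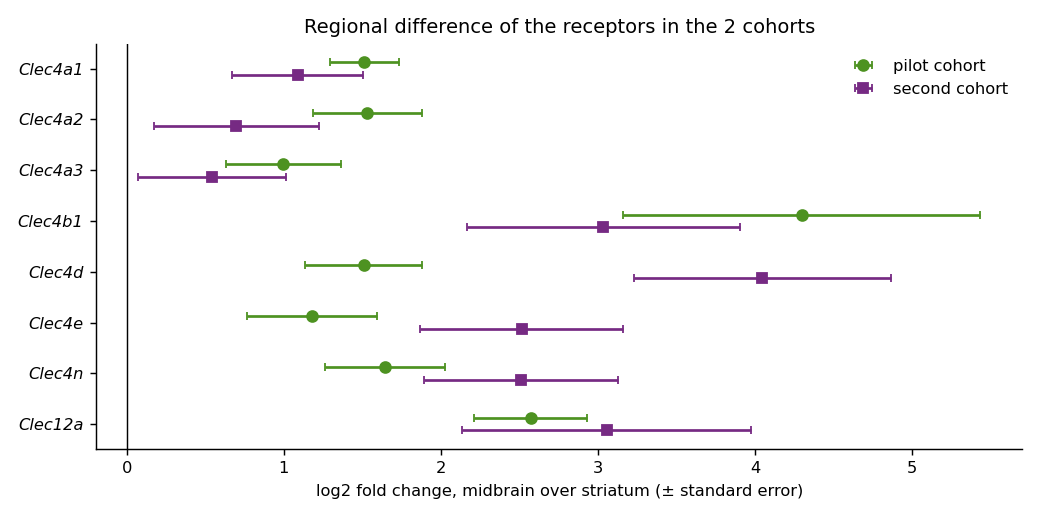
Log2 fold change of each receptor, midbrain over striatum, in the pilot cohort (green circles) and the second cohort (purple squares), with bars of 1 standard error. Points lie right of 0 for the 8 genes in both cohorts, and Clec4d shows the widest gap between cohorts, 1.51 against 4.05.

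Counted over the group, 8 of 8 receptors had midbrain libraries wholly above striatum libraries in the pilot, where 23.4% of 14972 tested genes did. This held in the second cohort for 6 of 8, all but Clec4a2 and Clec4a3, against 24.2% of 13486 genes. Both cohorts showed separate groups for 6 of 8, against 9.23% of genes, and 0 of 8 were wholly higher in the striatum, where 19.4% (pilot) and 17.5% (second cohort) of genes were. These counts use the contrast with which the genes were chosen, and nothing is read from them. The median log2 fold change over the 8 genes was 1.52 in the pilot and 2.51 in the second cohort, beside 0.02 and 0.00 over all genes tested. Without Clec4b1 the medians were 1.51 and 2.51. Whether the regional difference of any receptor differed between cohorts was not tested. In bulk RNA, fewer cells of a type and less RNA per cell cannot be told apart.

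The second cohort's values rested on which libraries were counted as which region. With the libraries of unsettled region added by their titles, 0 of 8 receptors had separate regional groups, against 5.99% of all genes, and the median log2 fold change fell to 0.86. With the same libraries added by their other label, 6 of 8 were separate, against 12.4% of genes, and the median was 2.27.

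The comparison of cohorts was tested for each receptor in a joint fit with region as a term. It is another contrast than the regional one, but it uses the same libraries, and the genes were chosen with results of these libraries known, so its calls are not independent evidence. Clec4e, Clec4d, Clec4n and Clec4a2 were higher in the second cohort at an adjusted p under 0.05 (limma, Benjamini-Hochberg over 14053 genes), and 4.71% of all genes passed in that direction. In the other direction 0 of 8 passed, beside 5.82% of genes, and at an unadjusted p under 0.05 in either direction 5 of 8 did, the fifth being Clec4a3, beside 29.1% of genes. Clec4e rose by 2.73 on the log2 scale (SE 0.42, adjusted p = 0.0061, limma) and was higher in each of the 4 second-cohort libraries than in the pilot library of the same region with the highest level. In the midbrain the ratio of its mean levels was 9.20, and in the striatum 3.03. Clec4d rose by 2.16 (SE 0.45, adjusted p = 0.0166, limma), with a ratio of 6.62 in the midbrain and 0.887 in the striatum. For Clec4n the difference was 1.75 (SE 0.34, adjusted p = 0.0130, limma), with ratios of 4.06 and 1.79. Clec4a2 rose by 1.40 (SE 0.41, adjusted p = 0.0482, limma), more in the striatum, at a ratio of 3.82, than in the midbrain, at 2.51, a difference between regions that was not tested.

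The other 4 receptors did not pass this test. Their differences on the log2 scale were 0.96 (SE 0.35, adjusted p = 0.0952, limma) for Clec4a3, 1.21 (SE 0.58, adjusted p = 0.187, limma) for Clec4b1, 0.90 (SE 0.43, adjusted p = 0.186, limma) for Clec12a and 0.29 (SE 0.21, adjusted p = 0.366, limma) for Clec4a1. The median over the 8 genes was 1.30, beside -0.02 over all genes. The calls depended on single libraries and on the tool. Without a midbrain library Clec4b1 fell below the filter. Without midbrain replicate 1 of the pilot, 0 of the 7 receptors left passed, with Clec4e at an adjusted p of 0.0511 (limma), and without midbrain replicate 2 of the pilot only Clec4e passed. Clec4a2 also lost its call without either pilot striatum library, without second midbrain replicate 1 and without either second striatum library. It passed neither with library size scaling (adjusted p = 0.0589, limma) nor with at least 10 counts in every library (adjusted p = 0.0510, limma). With DESeq2 Clec4d did not pass (1.44 on the log2 scale, adjusted p = 0.169) while Clec4a3 did (1.08, adjusted p = 0.0232). Markers of other cells moved with the cohort as well. At an adjusted p under 0.05 (limma), 6 of 12 neutrophil markers were higher in the second cohort and 0 lower, and 7 of 14 monocyte markers were higher and 1 lower. The neutrophil gene S100a8 rose by 3.63 and the monocyte genes Plac8 and Chil3 by 3.19 and 2.79 on the log2 scale, examples chosen after their values were seen. Of 14 microglia markers 4 were higher and 0 lower. The part of these cells in the receptors' cohort difference was not tested. The cohorts were separate experiments, so the mice, the dissection and the library preparation cannot be told apart in this contrast.

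The receptors also made up different shares of their common counts. Clec4d, Clec4e and Clec4n together held 46.9% and 43.2% of the counts of the 8 genes in the second midbrain libraries. In the pilot midbrain libraries they held 19.6% and 21.1%, in the pilot striatum 15.1% and 28.6%, and in the second striatum 20.9% and 11.3%. The second midbrain stood apart from the other groups in this share. Clec4a2 with Clec4a3 held 34.3% of the counts in each pilot midbrain library and 29.3% and 23.8% in the second midbrain libraries. In the striatum this pair held 54.1% and 32.1% in the pilot and 49.8% and 77.3% in the second cohort. The last share rests on 75 of 97 counts (95% exact binomial interval 67.7% to 85.2%), an interval that covers counting error only.

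**Figure D3:**
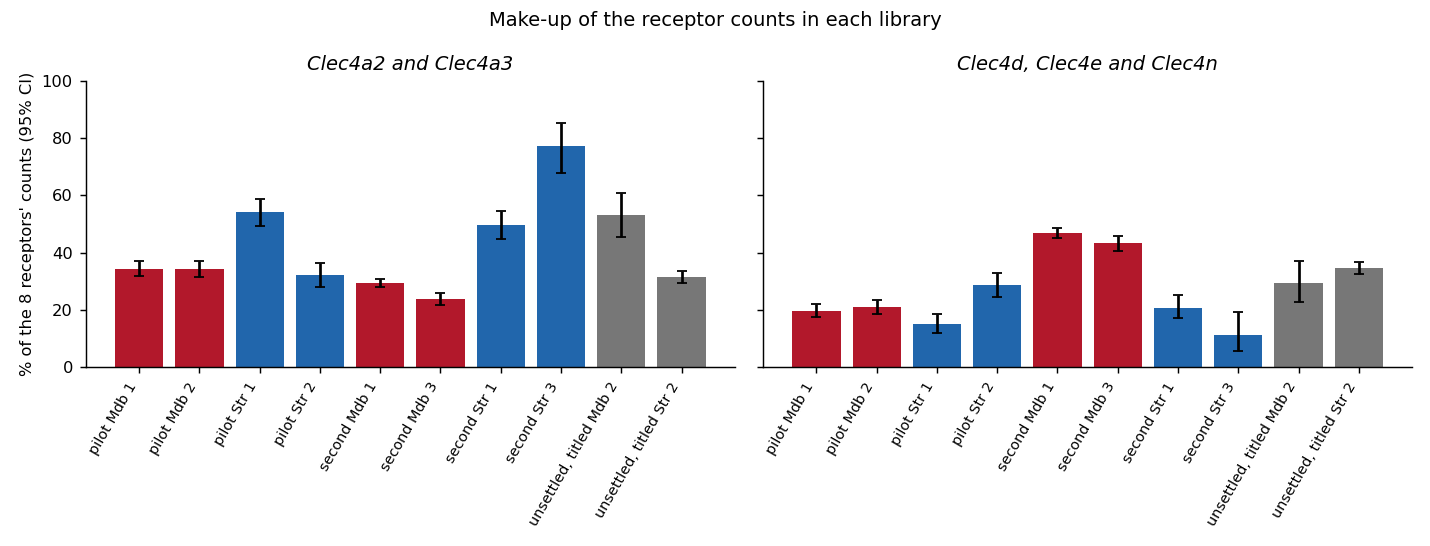
Share of the counts of the 8 receptors held by Clec4a2 with Clec4a3 (left) and by Clec4d, Clec4e and Clec4n (right) in each library, in percent with 95% exact binomial intervals. Red bars are midbrain, blue bars striatum and grey bars libraries of unsettled region, and in the right panel the second midbrain bars reach 46.9% and 43.2% while the other assigned bars stay at or below 28.6%.

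The midbrain replicates of the second cohort differed by more than those of the pilot. Replicate 1 held 3.68 times the Clec12a level of replicate 3, 3.25 times the Clec4a2 level, 2.72 times the Clec4d level and 2.64 times the Clec4e level. Clec4a1 went the other way, with a ratio of 0.691. Markers of other myeloid cells differed between the same libraries. The summed level of 14 monocyte markers was 3439 CPM in replicate 1 and 918.8 CPM in replicate 3, that of 14 neutrophil markers 6777 and 4368 CPM, and that of 13 markers of border macrophages, the macrophages of meninges and vessels, 2747 and 3456 CPM. Ccr2, the chemokine receptor of classical monocytes, was at 181.9 and 58.7 CPM, and Cd163, a scavenger receptor of border macrophages, at 113.3 and 141.1 CPM. The higher neutrophil sum of replicate 1 rested on S100a8 and S100a9. The rest of the neutrophil list summed lower in replicate 1 than in replicate 3. S100a8 was at 1116 and 243.1 CPM and S100a9 at 3897 and 1357 CPM in replicates 1 and 3. Ly6g went the other way, at 6.97 and 12.95 CPM. The part of these cells in the receptor values was not tested.

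Between regions the same lists moved as well. The monocyte list summed to between 475.6 and 559.0 CPM in the pilot midbrain and between 263.1 and 276.2 CPM in the pilot striatum, and in the second cohort to between 215.9 and 377.1 CPM in the striatum. The neutrophil list gave 1224 to 1595 CPM against 900.9 to 935.1 CPM in the pilot and 980.7 to 1054 CPM in the second striatum. These sums include Csf3r, at a mean of 444.7 CPM over the assigned libraries. Its pilot log2 fold change was -0.60, and it was the 1 of 12 tested genes of the list with a negative joint value. Border macrophage markers gave 2159 to 2569 CPM against 1072 to 1488 CPM in the pilot and 688.9 to 748.7 CPM in the second striatum. Each of these lists was thus higher in the midbrain in both cohorts, while the microglia list was higher in the striatum, at 29200 to 29390 CPM against 20700 to 23050 CPM in the pilot and 31340 to 36890 CPM against 20600 to 24150 CPM in the second cohort. The T and NK cell list also summed higher in the midbrain, at 91.1 to 103.3 CPM against 26.8 to 46.1 CPM in the pilot. In the second cohort it summed to 152.9 to 275.8 CPM against 17.1 to 52.6 CPM. Of its 8 tested genes, 8 had a positive joint log2 fold change. Sparse ones, such as Trbc2 at a mean of 1.85 CPM, could pass the filter on low counts through their midbrain libraries alone. Nkg7 was at 14.8 and 13.3 CPM in the pilot midbrain and 3.78 and 3.73 CPM in the pilot striatum. The T cell gene Trac did not follow, with 2 and 12 counts in the pilot midbrain and 13 and 3 in the pilot striatum.

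The summed level of the dendritic cell list was lower in the midbrain in both cohorts, at 2126 to 2261 CPM against 2574 to 2954 CPM and at 1905 to 2640 CPM against 3140 to 3839 CPM, and that of the B cell list was lower as well, at 671.4 to 686.9 CPM against 687.4 to 863.9 CPM and at 625.6 to 646.0 CPM against 745.4 to 758.9 CPM. In every assigned library Folr2, a border macrophage marker, Cd3e, a T cell marker, and Ms4a1 and Pax5, B cell markers, were at or under the floor. The dendritic list shares Siglech with the microglia list, and over its 11 tested genes the median joint log2 fold change was 0.83, opposite in sign to the difference of its sums, with 6 higher and 1 lower in the midbrain at an unadjusted p under 0.05 (limma). Siglech and Irf8, at means of 1352 and 820.5 CPM, made up most of the sums. In the joint fit 6 of 12 neutrophil, 6 of 12 border macrophage, 3 of 14 monocyte and 1 of 8 T and NK cell markers were higher in the midbrain at an adjusted p under 0.05 (limma), where 0.975% of all genes were, and 2 of 14 microglia and 1 of 11 dendritic cell markers were lower, where 0.0854% were. Of B cell markers 0 of 2 passed, also at an unadjusted p under 0.05.

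**Figure D4:**
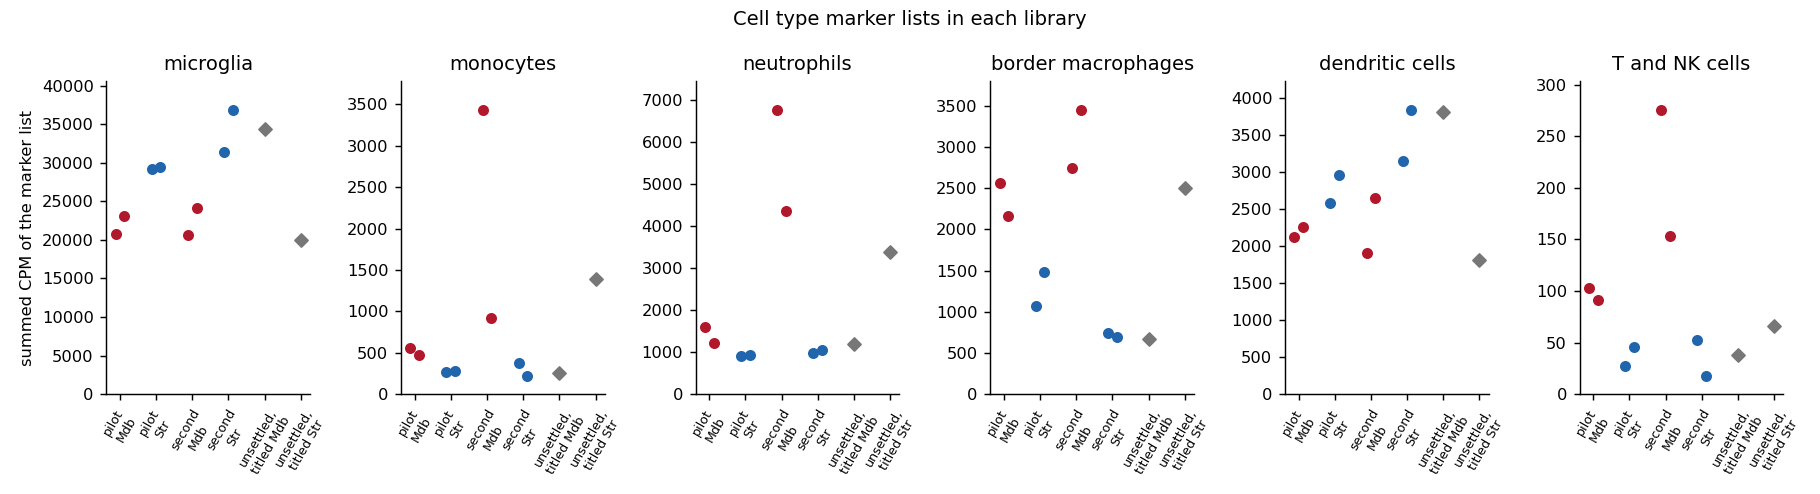
Summed CPM of the marker lists of 6 cell types in each library, for midbrain (red), striatum (blue) and libraries of unsettled region (grey diamonds). The monocyte and neutrophil sums of the second midbrain libraries, 918.8 to 3439 CPM and 4368 to 6777 CPM, lie above the other assigned libraries, and the microglia sums are higher in striatum.

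In the joint fit of both cohorts, with cohort as a covariate, the log2 fold changes of the receptors, midbrain over striatum, were 3.66 (SE 0.75) for Clec4b1, 2.78 (SE 0.57) for Clec12a, 2.61 (SE 0.60) for Clec4d, 2.08 (SE 0.41) for Clec4n and 1.97 (SE 0.49) for Clec4e. They were 1.40 (SE 0.22) for Clec4a1, 1.19 (SE 0.42) for Clec4a2 and 0.84 (SE 0.36) for Clec4a3. Other lectin genes were tested in the same fit, on lists that were also drawn up with earlier results of these data known. Of 44 other C-type lectin genes of chromosome 6, 17 passed the filter, 16 of them had a positive fold change, and 2 were higher in the midbrain at an adjusted p under 0.05 with 0 lower (11.8%, beside 1.06% of all genes in either direction). A gene with 6 or more counts in 50% of the libraries passes the filter, so a sparse gene can enter through its midbrain libraries alone. Olr1, Klrb1a, Klrd1 and Klre1 had means of only 1.74, 1.57, 2.53 and 3.25 CPM over the assigned libraries. The share of positive fold changes over all genes was not counted, and nothing is read from the 16. Clec7a, which encodes the fungal beta-glucan receptor Dectin-1 and lies at chr6:129461591-129472779, rose by 1.45 (SE 0.24, adjusted p = 0.0226, limma). Its level was 28.1 and 30.6 CPM in the pilot midbrain, 14.6 and 12.2 CPM in the pilot striatum, 47.3 and 65.0 CPM in the second midbrain and 14.9 and 10.3 CPM in the second striatum. Klri2, a receptor gene of natural killer cells, rose by 3.45 (SE 0.68, adjusted p = 0.0410, limma) on 11, 6, 33 and 9 counts in the midbrain libraries and at most 1 count in each striatum library. It passed the filter through its midbrain libraries alone, and its fold rests on the offset of 0.5 counts. Leaving out either pilot midbrain library, pilot striatum replicate 1 or either second striatum library ended the call of Clec7a, with adjusted p values up to 0.150 (limma). The call of Klri2 was lost without pilot striatum replicate 1 or either second striatum library, with adjusted p values up to 0.177 (limma).

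Lectin receptors of myeloid cells encoded on other chromosomes had a positive fold change in 15 of 19 genes tested, out of 25 listed. Here too the share over all genes was not counted. At an adjusted p under 0.05 (limma), 7 were higher in the midbrain and 1 was lower, beside 0.975% and 0.0854% of all genes. This list overlaps the marker lists, so its calls are not separate from theirs. Mrc1, Cd209f, Clec10a and Siglec1 are also border macrophage markers, Cd209a a dendritic cell marker, and Siglech a microglia and dendritic cell marker. Mrc1 and Siglech were thus called on both kinds of list. Mgl2, a galactose-type lectin of macrophages and dendritic cells, was at 86.8 ± 16.4 CPM in the pilot midbrain and 28.4 ± 7.62 CPM in the pilot striatum, and at 92.1 ± 3.03 and 17.5 ± 4.29 CPM in the second cohort (SD, n = 2). It rose by 1.87 on the log2 scale (adjusted p = 0.0137, limma). Cd93, a group XIV lectin of myeloid and endothelial cells, rose by 2.09 (adjusted p = 0.0210, limma), and Thbd, which encodes thrombomodulin, rose by 1.71 (adjusted p = 0.0181, limma). Cd209g, of the DC-SIGN family, rose by 1.84 (adjusted p = 0.0310, limma) and the galectin gene Lgals1 by 1.69 (adjusted p = 0.0260, limma). Siglech, a sialic acid-binding lectin of microglia, fell by 0.84 (adjusted p = 0.0416, limma), a call that held in 1 of 8 fits with a library left out. Without midbrain replicate 1 of the pilot, or without either striatum library of the second cohort, 0 genes of this list passed, and without midbrain replicate 2 or striatum replicate 1 of the pilot 5 and 1 did.

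For the signalling partners of the receptors no regional difference passed the test. All 32 listed genes for adaptor chains, kinases, phosphatases and the Card9 pathway were tested, and 0 passed at an adjusted p under 0.05 (limma), 16 with a positive and 16 with a negative fold change. At an unadjusted p under 0.05, 3 were higher and 3 lower, and 0 passed with edgeR and 2 with DESeq2. Fcer1g, the chain to which Mincle, MCL, Dectin-2 and DCAR couple, was at 1196 ± 69.3 CPM in the pilot midbrain and 1330 ± 257 CPM in the pilot striatum, and at 1714 ± 110 and 1684 ± 55.9 CPM in the second cohort (SD, n = 2). Its joint log2 fold change was -0.06 (adjusted p = 0.856, limma). Tyrobp, the related adaptor DAP12, gave -0.13 (adjusted p = 0.674, limma), and Inpp5d, which encodes the phosphatase SHIP1, gave -0.37 (adjusted p = 0.320, limma). Between cohorts, Fcer1g rose by 0.44 (adjusted p = 0.0466, limma) and Tyrobp by 0.68 (adjusted p = 0.0108, limma).

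Genes that lie beside the receptors and encode no lectin were tested as well. Of 75 such genes within 500 kb of a receptor, 14 passed the filter and 0 passed at an adjusted p under 0.05 (limma). At an unadjusted p under 0.05, 4 were higher and 0 lower, and 0 passed with edgeR and 1 with DESeq2. C3ar1, the receptor for complement C3a, gave 0.37 (adjusted p = 0.427, limma), Gabarapl1, an autophagy gene, gave -0.04 (adjusted p = 0.922, limma) and BC035044 gave -0.49 (adjusted p = 0.362, limma). The median over the 14 genes was 0.50, against 1.48 over the other lectins of the chromosome and 0.04 over all genes. The median of 1.48 includes sparse genes that could pass the filter through their midbrain libraries alone.

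**Figure D5:**
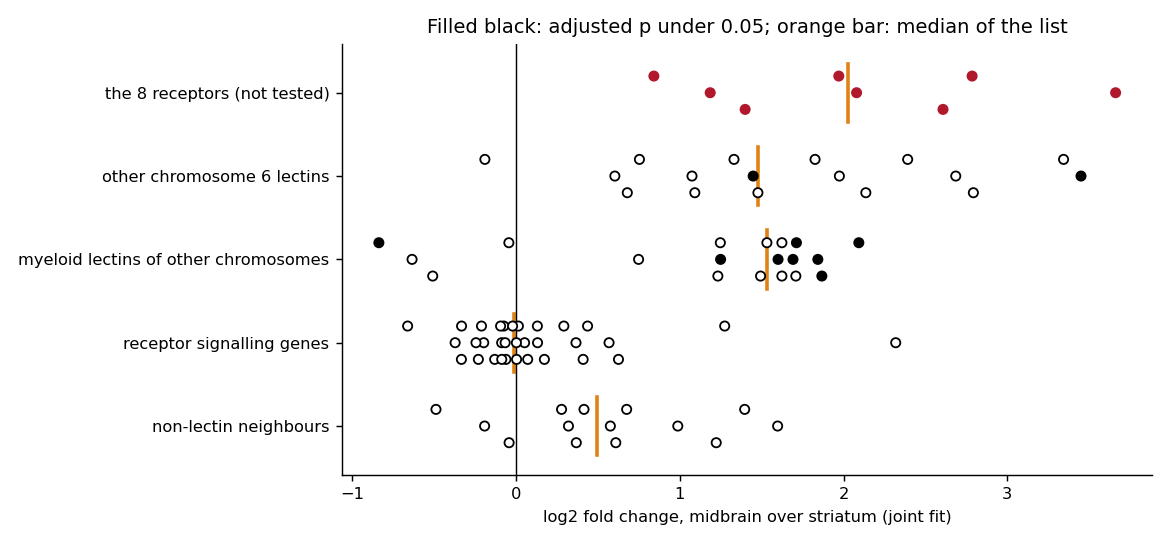
Joint log2 fold change, midbrain over striatum, of the 8 receptors (red, given as values with no test), of the other lectins of chromosome 6, of myeloid lectins of other chromosomes, of receptor signalling genes and of non-lectin neighbours, 1 point per gene. Filled black points have an adjusted p under 0.05 and orange bars are list medians, which are 2.02 for the receptors and -0.01 for the signalling genes.

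Across all 10 libraries the receptors varied together to different degrees. Over their 28 pairs, Pearson's r of log2 CPM ran from 0.46 for Clec4a1 with Clec4a2 to 0.982 for Clec4a2 with Clec4a3, the pair that overlapped between regions in the second cohort, with a median of 0.795. Libraries share region, cohort and depth, so these values only describe them. The genes outside the group whose log2 CPM was most like the mean of the 8 receptors over the 10 libraries, among 14053 genes, were Cybb (r = 0.973), Anxa1 (r = 0.973), Cp (r = 0.967), Pla2g7 (r = 0.967) and Ccl12 (r = 0.966). Cybb encodes the catalytic subunit of the phagocyte NADPH oxidase and ranged from 40.5 to 698.8 CPM. Anxa1, which encodes annexin A1, ranged from 5.60 to 301.3 CPM.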

How the data were processed

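Poly-A RNA of CD11b-positive cells was measured in 10 libraries. The authors aligned the reads with STAR 2.5.3a, counted them over exons per gene with featureCounts 1.6.0 on Gencode M17 (GRCm38) and deposited raw counts, with no normalization, so a gene in a shared stretch loses reads. Symbols matched 53620 of 53715 identifiers. The 8 receptors and all gene lists were chosen with earlier results of these data known.

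In R 4.3.3, the voom method of limma 3.58.1 with moderated, two-sided tests was run on TMM-scaled counts (edgeR 4.0.16) after genes with under 6 counts in more than 50% of a fit's libraries were left out. Each cohort was fitted alone, and a joint fit of 8 libraries had region and cohort as terms. Genes outside the receptors are named where they passed an adjusted p of 0.05, at most 5 per list and direction, and otherwise by the 3 highest means. Genes most like the receptors are the 5 highest correlations. Exact intervals and the floor of 3 counts cover counting error only. Depth was 575709 to 8463782 counts per assigned library.

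Alternatives tried were DESeq2 1.42.0, the quasi-likelihood test of edgeR, library size scaling, other filters, a replicate block, both placements of the 2 libraries of unsettled region, and leaving out each library. Counts of receptors with separate groups were repeated under the last of these as alternatives chosen after seeing the data. On simulated counts, limma found 98 of 100 genes changed 4-fold and 61 of 100 changed 2-fold in the pilot design (14599 genes). It found 89 and 25 in the second (13072 genes), and 100 and 46 in the joint fit (13787 genes). The cohort designs were scored at an unadjusted p under 0.01 and the joint fit at an adjusted p under 0.05. These rates are thus not comparable between designs. All genes were drawn at the median dispersion in separate libraries, and changed genes came from those above a minimum level. The detection rate for the receptors was not measured.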

Additional observations from a re-analysis of the deposited data

Results flagged for a closer look

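The 2 libraries whose labels name both regions were in no comparison, and the receptors were detected in each of them. The library titled midbrain held a summed level of 103.0 CPM over the 8 receptors, 7 of them above the floor of 3 counts, with Clec4b1 at 0 counts. The library titled striatum held 399.6 CPM, with 8 of 8 above the floor. Assigned midbrain libraries ranged from 198.3 to 815.4 CPM and assigned striatum libraries from 57.9 to 166.2 CPM. In the library titled striatum Clec4d was at 76.8 CPM, Clec4e at 33.7 CPM and Clec12a at 59.3 CPM, and in the library titled midbrain they were at 12.8, 11.6 and 4.88 CPM. The region of these libraries was not settled from these values.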

How the results depend on the processing

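The receptors' median log2 fold change stayed above 0 under every alternative run. Of 606 single-gene values under alternatives, 514 kept their direction and side of the threshold or moved by less than the replicate spread. Of the called ones 0 changed sign. The receptors' regional values carry no call, and only the distance they moved was scored. In the second cohort Clec4a1, Clec4a2 and Clec4a3 turned negative under some alternatives, with lowest values of -0.07, -0.13 and -0.06. With at least 10 counts in every library the median was 0.68 in the second cohort and 1.08 in the joint fit, with 0 other chromosome 6 lectins, 3 myeloid lectins and 0 receptors different between cohorts; that filter removes the receptors low in striatum. With both unsettled libraries placed by title these values were 0.86, 1.28, 0, 0 and 1, and 0 receptors had separate groups in the second cohort; placed by the other label, 5 chromosome 6 lectins and 2 signalling genes passed. The chromosome 6 lectins numbered 4 with edgeR, 10 with DESeq2 and 4 with no filter, and with DESeq2 15 myeloid lectins, 2 signalling genes and 1 neighbour passed. Same-numbered libraries did not deviate together (r = -0.02 in the pilot and 0.05 in the second cohort), but the second cohort's file headers number the animals differently from the titles, so its pairs may not be mice; the title number as a replicate block gave 6 chromosome 6 lectins, 12 myeloid lectins and 1 signalling gene, and medians of 1.496, 2.82 and 2.21. Leaving out each library gave medians of 1.504 to 1.76 (pilot), 1.79 to 3.09 (second cohort) and 1.49 to 2.28 (joint fit), 0 to 4 chromosome 6 lectins, 0 to 10 myeloid lectins, 0 to 1 signalling genes, 0 neighbours, 0 to 6 receptors different between cohorts, and 8 (pilot) and 6 to 8 (second cohort) receptors with separate groups; a lone library was assumed to vary like the other groups. Apart from that filter, the cause of these changes was not tested. Striatum replicate 3 of the second cohort, with 575709 counts, limits what can be seen below 5.14 CPM.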

Other observations

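Other genes of the same cluster and of the neighbourhood of Clec12a fell below the filter of the joint fit, and they are named here after their values were seen. Clec4a4, an ITIM-bearing relative of Clec4a2, gave 9 counts over the 10 libraries, at most 3 in any of them, and Clec4b2, a relative of Clec4b1, gave 1 count. Clec9a, the receptor with which cross-presenting dendritic cells bind actin of dead cells, gave 65 counts. Its level was 2.63 ± 0.347 CPM in the pilot midbrain and 0.422 ± 0.0627 CPM in the pilot striatum, and 1.84 ± 1.29 and 0.181 ± 0.256 CPM in the second cohort (SD, n = 2). Clec1a gave 38 counts, Clec1b 53 and Clec12b 11.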
